A study of Bos taurus with 9 samples.

Results

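The genes described here encode the proteins of the cytoplasmic ribosome, measured in bovine endometrial epithelial cells (BEEC) that had been cultured with embryos. Rows of the gene table were taken whose symbol begins with RPL or RPS followed by a number, with RPLP0 and RPLP1 included and mitochondrial ribosomal proteins left out. Of 48 such rows, 39 had at least 90 unique exon reads (reads that match a single place in the genome) summed over the 9 libraries. These 39 genes, 20 of the large and 19 of the small subunit, stand among 24596 genes in the table. Ribosomal protein genes with other symbols in the table were not analysed as members.

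BEEC are primary cells scraped from the lining of the uterus, here from 3 bovine uteri at the early luteal stage, grown with serum and frozen before use. Groups of 5 morulae were laid on the cell layers at day 4 after fertilisation and the BEEC were harvested at day 8, with 3 wells pooled per sample. The groups control, HIGHGLUC and LOWAA, of 3 libraries each, are named after the regime in which the embryos had been kept beforehand. All BEEC met embryos, so no library shows the cells without them, and the labels name the regimes without concentrations. The passage of the cells is 1 in the culture protocol but 2 in the sample labels. No label says that libraries came from separate cultures or animals, so p-values speak of the spread among these libraries alone. The protocol gives single reads of 50 bp from total RNA, while the headers of the table call the libraries paired. Unique exon reads per library ran from 2731978 in control replicate 5, the shallowest library by far, to 13372200 in control replicate 9. Levels are given as CPM, counts scaled to 1000000 unique exon reads. Where a library had 0 reads, a level of up to 0.224 to 1.10 CPM (3 reads) remained possible, depending on its depth.

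Both epithelial and stromal markers were abundant. The keratins KRT8, KRT18 and KRT19 averaged 4252, 2090 and 1669 CPM and E-cadherin (CDH1) 128 CPM, while EPCAM had 13 reads in all. COL3A1, DCN, COL1A1 and VIM, which mark stroma, averaged 5325, 2204, 1815 and 568 CPM. The epithelial label is thus met by keratins and CDH1 but not by EPCAM, and stromal transcripts were as abundant. KRT8 had group means of 4343, 4206 and 4207 CPM in control, HIGHGLUC and LOWAA, and COL3A1 had 5368, 5295 and 5312 CPM. Other markers differed more between groups. KRT7 had 169, 141 and 162 CPM, DCN 2133, 2324 and 2156 CPM, and COL1A1 1848, 1698 and 1899 CPM in the same order. HIGHGLUC was lowest in KRT7 and COL1A1 and highest in DCN, and the part of these markers in the results below was not tested. PTPRC and CD3E (leukocytes), CDH5 (endothelium) and SOX2 (embryo) had 0 reads, and PECAM1, HBB and the embryonic interferon gene IFNT2 had 30, 18 and 13. In bulk RNA of this kind, fewer cells of a type and less RNA per cell cannot be told apart.

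A cytoplasmic ribosome joins a small subunit, which reads the mRNA, to a large subunit, which makes the peptide bond and holds the exit tunnel. Nearly every ribosomal protein is present in a single copy per ribosome, and its mRNA begins with a pyrimidine tract through which mTOR and LARP1 tie translation to nutrients. That control acts on translation and mRNA stability, so mRNA counts do not show ribosomal output. Mammalian genomes also hold many intronless copies of these genes, and short reads from a gene and its copy can match both.

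Of the 48 rows, 10 had 1 exon, and these 10 rows held 0 reads across a junction and 0 in an intron. Of these 10 rows, 7 lay under the read minimum and 3 (RPS16, RPS29 and RPL12) were members. Whether these rows lie at the expressed gene or at an intronless copy was not tested, so their values belong to the row and may not be those of the protein named. The member just inside the minimum was RPS16 with 171 unique reads. Under the minimum RPL8, RPL3L, RPL30 and RPL23 had 22, 8, 6 and 2 unique reads. RPL3L, the muscle counterpart of RPL3, and RPL7 had several exons but 8 and 0 unique reads. RPL10L, known in mice as a testis gene, had 0 unique and 0 total reads.

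The row for RPS6, the small-subunit protein that S6 kinase phosphorylates, held 9625 exon reads of which 0 were unique. These reads were 1353 in control replicate 5, 2843 and 2043 in HIGHGLUC replicates 6 and 10, and 3352 in LOWAA replicate 8. In the other 5 libraries the row held 2 to 11 reads. RPL36, a large-subunit protein whose row also had 0 unique reads, had 74.5, 6.37 and 10.5 CPM of total exon reads in control replicates 5, 9 and 13. HIGHGLUC replicates 6, 10 and 14 had 53.7, 50.3 and 7.22 CPM of total reads in that row. LOWAA replicates 8, 12 and 15 had 53.2, 12.6 and 7.57 CPM. The same 4 libraries were high in both rows and came from all 3 groups, so neither row gives a level for its gene.

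Levels between genes are compared as unique exon reads per kilobase of exon and per 1000000 reads, as the mean of 9 libraries. The 39 members had a median of 876 on that scale and 14 exceeded 1000. The medians were 862 for the large and 926 for the small subunit. The ribosomal stalk recruits elongation factors. RPLP0, the scaffold of the stalk (chromosome 17, 64809253 to 64813289, build UMD3.1), had the highest level, 1963 ± 139 (SD, n = 9 libraries). RPLP1, which dimerises with RPLP2 on that scaffold, had 1583 ± 257. RPL12, at the stalk base, had 229 ± 20.9 from a row with 1 exon (chromosome 10, 83480587 to 83481217) in which 16.6% of the exon reads were unique.

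Small-subunit proteins came next. RPS2, near the mRNA entry channel, had 1859 ± 118 unique reads per kilobase. RPS12, of the head of the small subunit, had 1845 ± 198. These SDs overlap from RPS2 to RPS12 and with RPLP0. The top 3 genes were measured in the same libraries, so this overlap does not decide their order, which was not tested. RPL11, a large-subunit protein that can also bind the p53 regulator MDM2, lay near the middle at 952 ± 36.4.

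At the low end stood both paralogs among the members and a pair of rows with 1 exon. RPL26L1, a near copy of RPL26 (chromosome 20, 4626431 to 4632649), had 32.9 ± 4.32 unique reads per kilobase, against 567 ± 32.1 for RPL26 at the mouth of the exit tunnel. RPL7L1, a relative of RPL7 linked to large-subunit assembly, had 106 ± 4.87. RPS29, a zinc-binding protein of the small-subunit head (chromosome 10, 26814898 to 26815069), had 122 ± 35.6. RPS16, whose tail reaches the peptidyl-tRNA site, was lowest at 4.07 ± 1.31 from its row on chromosome 3, 117506246 to 117506811. Multiply matched reads are left out of this scale, which by construction lowers the level of a member with a low unique share. That share was 29.7% in RPS16 and 47.3% in RPL26, but 100% in RPL26L1 and RPL7L1 and 98.2% in RPS29.

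**Figure D1:**
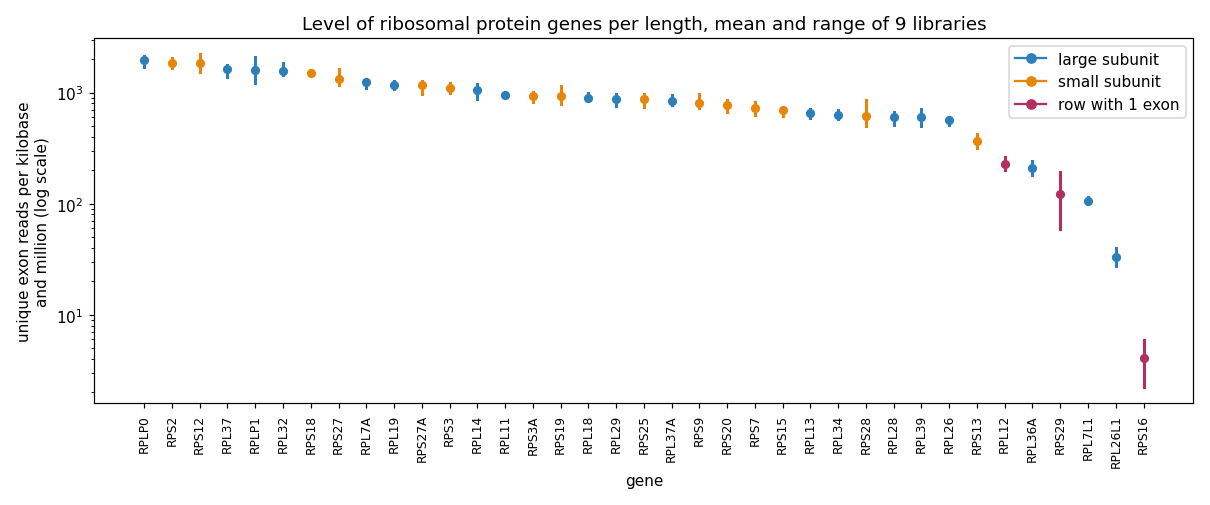
Unique exon reads per kilobase of exon and per 1000000 reads (log scale) for the members, without those not reported here, in order of level; points are means of 9 libraries and lines run from the lowest to the highest library. Most genes lie within a narrow band around the median of 876, and the rows with 1 exon (RPL12, RPS29, RPS16) are among the lowest.

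Over the 36 members with several exons, the share of unique exon reads that crossed a junction had a median of 66.6%, and it ran from 11.2% in RPL39, which has 2 exons, to 94.0% in RPS25. In every library 34 of the 36 lay above the share of all genes, which was 39.9% to 41.8%. Intron reads over these 36 members together made up 1.22% to 2.29% of their exon and intron reads per library, against 7.20% to 13.1% over all genes. LOWAA replicate 12 was highest on both measures. In every library 32 of the 36 members lay below the intron share of all genes. RPL26L1 had the highest intron share, 20.7%, followed by RPL36A with 15.4% and RPL13 with 8.08%.

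Of the 39 members, 12 overlap another gene of the table, and the kit named in the labels does not record strand, so such reads cannot be told apart. For 11 of them the overlapping genes carry small nucleolar RNA names, such as SNORD100 in RPS12 and SNORA64 in RPS2. RPS25 overlaps CCDC84. The members lie on 18 chromosomes, with 6 of them on chromosome 18.

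The share of exon reads that were unique had a median of 98.6% over the members. It exceeded 99% in 19 members, 15 of which had unique reads only. It was under 70% in 8 and under 50% in 5. These 5 were RPL12 at 16.6%, RPS16 at 29.7%, RPL36A at 37.9%, RPL26 at 47.3% and RPS13 at 47.5%.

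Control replicate 5 stood apart from the other 8 libraries in this share. For RPS13, a small-subunit protein placed early in assembly, 568 of 568 exon reads were unique in control replicate 5 (Wilson 95% interval 99.3% to 100%), against 44.1% to 48.9% in the others. RPS25, a small-subunit protein used in some cap-independent initiation, was at 100% there and at 56.1% to 65.1% elsewhere. RPL36A, of the tRNA exit site, was at 99.4% (97.8% to 99.8%) against 34.5% to 40.1%. RPL26 was at 82.5% (79.97% to 84.7%) against 44.6% to 51.0%, and RPS19, of the small-subunit head, at 91.9% (90.3% to 93.2%) against 64.01% to 67.6%. RPS16 went the other way, with 1.12% (0.435% to 2.84%) against 62.9% to 85.7%. These intervals reflect counting error alone, because PCR copies of a molecule are not independent.

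**Figure D2:**
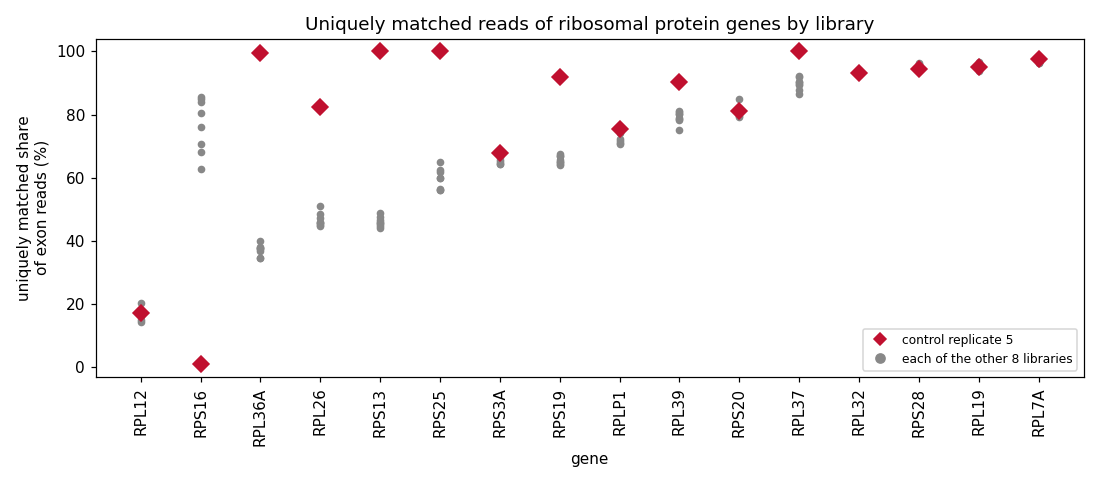
Unique share of exon reads (%) in each library for the members with the lower unique shares; red diamonds are control replicate 5 and grey points the other 8 libraries. RPS13, RPS25, RPL36A, RPL26 and RPS19 lie far above the other libraries in control replicate 5, RPS16 lies far below them, and RPL12 and RPS3A lie close to them.

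Among 5047 genes with at least 100 exon reads in every library, 36 of them members, 27 had a unique share in control replicate 5 that was more than 20 percentage points above every other library, and 6 were as far below. The same count was 0 in each of the other 8 libraries. Of the 27 genes, 5 were the members above, and the other symbols were CRTAP, DNAJA2, IFITM3, PPP2CB and TUBA1B. The cause was not tested.

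The difference lay in the multiply matched reads. RPS13 had 197 CPM of total exon reads in control replicate 5 and 341 to 436 CPM in the other libraries, while its unique level was 210 CPM there and 164 to 220 CPM elsewhere. RPL26 had 344 CPM of total reads in control replicate 5 and 542 to 635 CPM elsewhere, and 302 CPM of unique reads there against 257 to 311 CPM elsewhere. Unique levels in that library thus lay within the range of the others for RPS13 and RPL26. The mean log2 CPM of all members from unique reads was nevertheless highest there, at 8.61, beside 8.41 to 8.58 in the other libraries. Unique reads are used for every comparison that follows.

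**Figure D3:**
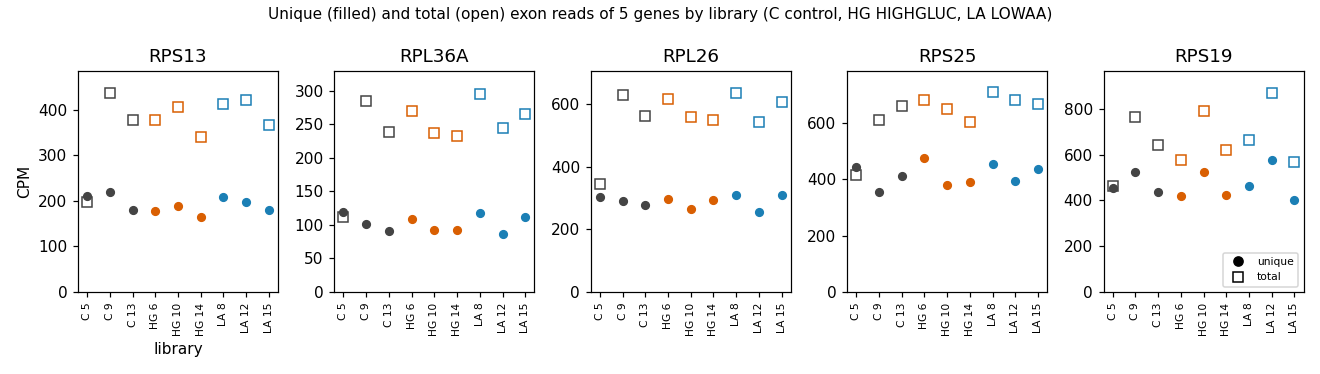
CPM of unique (filled) and total (open) exon reads of 5 members in each library, by group colour; unique values are scaled with TMM factors and total values are plain CPM of total reads. In control replicate 5 the open and filled symbols nearly coincide, and in the other libraries the open symbols lie well above the filled ones.

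The members together took 2.39%, 2.28% and 2.02% of the unique exon reads in control replicates 5, 9 and 13, a mean of 2.23% ± 0.188 (SD, n = 3). HIGHGLUC replicates 6, 10 and 14 had 2.22%, 2.21% and 2.13%, a mean of 2.19% ± 0.0496. LOWAA replicates 8, 12 and 15 had 2.31%, 2.34% and 2.14%, a mean of 2.26% ± 0.105. The Wilson 95% intervals of these shares are 0.0160 to 0.0362 percentage points wide, less than the SD within each group. In HIGHGLUC the intervals of replicates 6 and 10 overlap. The 3 groups overlap.

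In the order of the library numbers each run of 3 libraries holds 1 of every group. These runs, called sets here, are replicates 5, 6 and 8, then 9, 10 and 12, then 13, 14 and 15. What the numbers stand for is not labelled. In 32 of the 39 members the means of the sets differed by more than the means of the groups, with a median range of 0.18 on the log2 scale between sets and 0.093 between groups. This count was not made over all genes. Over all genes tested, libraries of the same set also went together, with correlations of 0.198 to 0.452 once group means were removed. Differences between sets are thus no trait of the members alone. The mean log2 CPM of the members was 8.61, 8.52 and 8.58 in set 1 for control, HIGHGLUC and LOWAA. It was 8.54, 8.47 and 8.55 in set 2 and 8.41, 8.44 and 8.50 in set 3. Each group was highest in set 1 and lowest in set 3. RPL39, which lines the exit tunnel, followed this order with deviations from its mean of 0.15, 0.041 and -0.19 (log2) in sets 1, 2 and 3.

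**Figure D4:**
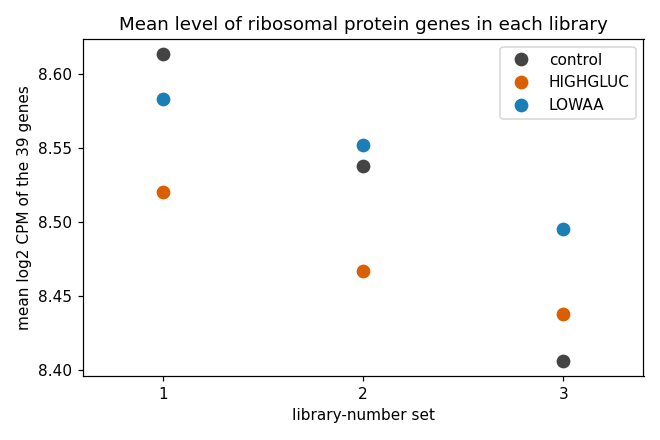
Mean log2 CPM of the 39 members in each library, by set of library numbers (x axis) and group (colour). In every group the library of set 1 is highest and that of set 3 lowest, and HIGHGLUC lies below LOWAA in each set by 0.063, 0.085 and 0.057.

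The first comparison asks whether BEEC differed after contact with embryos from the HIGHGLUC regime. No member passed the test (edgeR quasi-likelihood, Benjamini-Hochberg adjusted p under 0.05), and neither did any of the 11700 genes tested (0%). The smallest adjusted p of a member was 0.9998. At an unadjusted p under 0.05 there were 3 members of 39, beside 3.05% of all genes. DESeq2 and limma-voom called 0 members and 0 genes. Each had 3 members at an unadjusted p under 0.05, among 204 genes with DESeq2 and 418 with limma-voom. With the sets as a replicate block, edgeR called 0 members and 7 genes (0.0598%), and 7 members had an unadjusted p under 0.05, beside 7.11% of all genes. The fitted SE of a member had a median of 0.098, so a small difference was not detectable with 3 libraries per group.

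RPS28, a small protein near the mRNA exit of the small subunit (chromosome 7, 18198991 to 18200124), had 209, 281 and 198 CPM in control replicates 5, 9 and 13. It had 173, 202 and 167 CPM in HIGHGLUC replicates 6, 10 and 14. HIGHGLUC was lower within every set, but replicate 10 lay above control replicate 13, so the groups overlap. The log2 fold change was -0.35 ± 0.15 (SE; adjusted p 0.9998 in edgeR), and -0.17 without control replicate 9. With the sets as a block its adjusted p in edgeR was 0.067, the smallest of the members. RPS29 had 25.1, 32.7 and 19.4 CPM in control and 20.1, 19.2 and 10.3 CPM in HIGHGLUC. HIGHGLUC replicate 14 was the lowest of all libraries, and the groups overlap between control replicate 13 and HIGHGLUC replicate 6. The log2 fold change of this row, which has 1 exon, was -0.64 ± 0.25. Leaving out control replicate 9 gave -0.37, and leaving out HIGHGLUC replicate 14 gave -0.40.

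RPS7, a small-subunit protein that can bind MDM2 (chromosome 8, 112896492 to 112901718), had 509, 460 and 509 CPM in control replicates 5, 9 and 13. It had 586, 538 and 562 CPM in HIGHGLUC replicates 6, 10 and 14. Every HIGHGLUC library lay above every control library, and RPS7 was the single member whose groups did not overlap, beside 7.35% of all genes. Its log2 fold change was 0.19 ± 0.087 (adjusted p 0.9998 in edgeR). RPS28, RPS29 and RPS7 were the 3 members with an unadjusted p under 0.05. RPL12 had a log2 fold change of 0.18, which was 0.014 with total exon reads, 0.28 without HIGHGLUC replicate 10 and 0.10 without HIGHGLUC replicate 14. RPS2 had 0.11, and 0.18 without control replicate 5. RPS12 had -0.19, which was -0.11 and -0.29 without control replicates 9 and 13 and -0.13 without HIGHGLUC replicate 14. RPS13 had -0.20.

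Of the 39 members, 28 had a lower and 11 a higher fitted level in HIGHGLUC than in control, beside 50.1% lower and 49.9% higher among all genes. The median log2 fold change was -0.041, beside -0.00028 over all genes. The fold changes ran from -0.64 in RPS29 to 0.30 in RPS16, whose level rests on 4 to 30 unique reads per library. Control replicate 5 decided this direction: without it 14 members were lower and the median was 0.027. Without control replicate 13, 31 were lower and the median was -0.10. By set, the mean difference was -0.093, -0.071 and 0.031 in sets 1, 2 and 3, so the third set had the opposite sign.

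The second comparison sets LOWAA against the same control libraries. No member passed the edgeR test among 11700 genes (0%), and 0 members had an unadjusted p under 0.05, beside 4.24% of all genes. DESeq2 called 0 members and 6 genes, limma-voom 0 members and 0 genes. With the sets as a block edgeR called 57 genes (0.487%), none of them a member, and 4 members had an unadjusted p under 0.05, beside 9.27% of all genes. The smallest adjusted p of a member was then 0.387.

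RPL12 had 145, 125 and 127 CPM in control and 152, 147 and 153 CPM in LOWAA replicates 8, 12 and 15. All LOWAA libraries lay above all control libraries, though the nearest pair stood at 145 and 147 CPM. Its log2 fold change was 0.19 ± 0.098, and 0.075 with total exon reads, of which 16.6% were unique. RPS15, needed for export of the small subunit, had 319, 340 and 318 CPM in control and 363, 360 and 353 CPM in LOWAA. These groups did not overlap either, and the log2 fold change was 0.14 ± 0.081. RPS7, with 541, 602 and 516 CPM in LOWAA, was the last of 3 members without overlap, beside 9.92% of all genes. Its lowest LOWAA library, at 516 CPM, stood just above both control libraries at 509 CPM, and its log2 fold change of 0.17 ± 0.087 was 0.10 without LOWAA replicate 12.

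RPLP1 had 1080, 894 and 636 CPM in control and 801, 727 and 758 CPM in LOWAA. The LOWAA libraries lay inside the control range, and its log2 fold change of -0.19 ± 0.17 was -0.0059 without control replicate 5 and -0.37 without control replicate 13. RPS29 had 18.5, 22.3 and 19.996 CPM in LOWAA and a log2 fold change of -0.36 ± 0.24, which was -0.093 without control replicate 9 and -0.56 without control replicate 13. RPS28 had 204, 231 and 169 CPM in LOWAA and -0.19 ± 0.15, which was -0.012 without control replicate 9 and, leaving out other libraries, between -0.30 and -0.083. The libraries that moved it by over 1.5 times were control replicates 9 and 13 and LOWAA replicates 12 and 15. RPL32, of the outer face of the large subunit, had -0.10 ± 0.11, which was -0.040 and -0.19 without control replicates 9 and 13, and -0.17 and -0.045 without LOWAA replicates 8 and 12. RPS2 had 0.14 ± 0.090.

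In this comparison 29 members had a higher and 10 a lower fitted level in LOWAA, beside 51.2% higher and 48.8% lower among all genes. The median log2 fold change was 0.024, beside 0.0037 over all genes, and the fold changes ran from -0.36 to 0.41 (RPS29 and RPS16). This direction rested on single libraries: 13 members were higher without control replicate 13 and 19 without LOWAA replicate 8. Without control replicate 5 it stayed, with 30 members higher and a median of 0.082. The mean difference by set was -0.030, 0.014 and 0.089.

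The third comparison sets both treated groups against each other, and shares its libraries with the others. No member passed the edgeR test among 11700 genes (0%), 0 had an unadjusted p under 0.05, beside 3.47% of all genes, and DESeq2 and limma-voom called 0 members. DESeq2 called 3 genes. With the sets as a block edgeR called 36 genes (0.308%) and 0 members, with 2 members at an unadjusted p under 0.05, beside 9.01% of all genes. The smallest adjusted p of a member was then 0.545.

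Here 37 of the 39 members had a lower fitted level in HIGHGLUC than in LOWAA and 2 a higher one, beside 50.7% and 49.3% of all genes. The median log2 fold change was -0.059, beside -0.0027 over all genes. Both subunits took part, with 19 of 20 large-subunit and 18 of 19 small-subunit members lower. Leaving out 1 library at a time left 28 to 37 members lower and a median between -0.083 and -0.034. Within the sets 29, 33 and 24 members were lower. The members vary together over the libraries, so their number is no measure of how firm this direction is.

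RPL26L1 had 18.8, 20.3 and 18.1 CPM in HIGHGLUC and 23.5, 21.5 and 23.1 CPM in LOWAA. The groups did not overlap, which held for 1 member, beside 8.40% of all genes. Its log2 fold change was -0.25 ± 0.13, while its parent gene RPL26 had -0.036 ± 0.091. RPS13 had 178, 188 and 164 CPM in HIGHGLUC and 209, 197 and 179 CPM in LOWAA. Its groups overlap, with a log2 fold change of -0.14 ± 0.095. It was -0.091 without HIGHGLUC replicate 14, -0.089 without LOWAA replicate 8 and -0.089 with total exon reads. RPS15 had -0.12, which was -0.069 and -0.19 without HIGHGLUC replicates 6 and 14. RPS12 had -0.13, and -0.056 without HIGHGLUC replicate 14. RPLP1 and RPS7 were the members with a higher level in HIGHGLUC, by 0.11 ± 0.17 and 0.023 ± 0.087. Without HIGHGLUC replicate 6 both turned below 0.

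**Figure D5:**
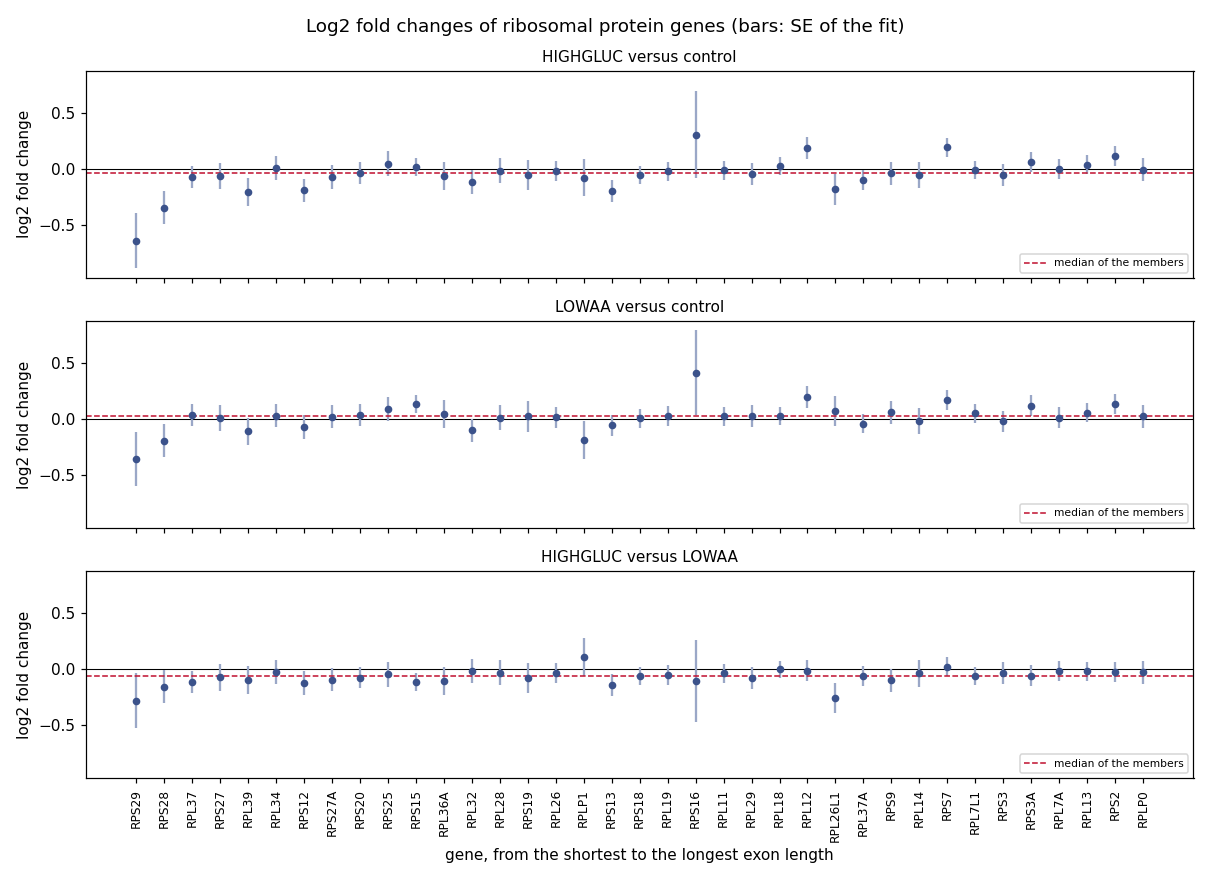
Log2 fold changes (points) with the SE of the fit (bars) for the members in the 3 comparisons, without those not reported here, ordered from the shortest to the longest exon length; the dashed line is the median of all 39 members. The points against control scatter around 0, RPS29 and RPS28 lie lowest against control, and in HIGHGLUC against LOWAA every point shown but those of RPLP1 and RPS7 lies below 0.

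The 12 members with under 500 bases of exon had a median log2 fold change of -0.10 in HIGHGLUC against LOWAA, and the 27 longer ones -0.038. The same medians were -0.070 and -0.022 for HIGHGLUC against control, and 0.026 and 0.024 for LOWAA against control. Across the 39 members, which are not independent replicates, exon length and log2 fold change had a Spearman rho of 0.53 for HIGHGLUC against control, 0.39 for LOWAA against control and 0.50 for HIGHGLUC against LOWAA. Over all genes tested these values were -0.040, -0.036 and 0.0043. Exon length also went with the spread: rho with the SD of log2 CPM was -0.52 over the members and -0.14 over all genes. The part of length in the fold changes was not tested.

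The SD of log2 CPM over 9 libraries had a median of 0.12 in the members and 0.17 over all genes tested, which include genes with far fewer reads. RPL18 varied least (0.054), and RPS29 and RPS16 most (0.44 each). Pairs of members had a median Pearson r of 0.36 over the 9 libraries, beside -0.0005 for all genes, and these libraries share the order by set described above. The genes outside the members whose log2 CPM followed the mean of the members most closely over the 9 libraries were COPZ2, EEF1B2 and ADI1, with Pearson r of 0.956, 0.955 and 0.947. EEF1B2 encodes a subunit of an elongation factor and COPZ2 one of the COPI coat.

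The multiply matched reads changed what total exon reads would show. With total reads the log2 fold change of RPS13 in HIGHGLUC against control was 0.16, and -0.10 when control replicate 5 was also left out, beside -0.20 with unique reads. RPS25 had 0.20 with total reads, 0.038 without that library and 0.044 with unique reads. RPS16 had -3.66 ± 1.78 with total reads, 0.36 without that library and 0.30 ± 0.39 with unique reads. Its total count was 358 in control replicate 5 and 20 to 36 in the others.

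The authors' deposited table, which compares their normalised values with Baggerley's test, gave 1 member an adjusted p (FDR) under 0.05. This was RPS15 in LOWAA against control, with a fold of 1.11 and an FDR of 0.0139 in the authors' deposited table, where 77 of 24596 genes passed. In HIGHGLUC against control the authors' deposited table had 11 such genes and 0 members, with RPS7 at a fold of 1.13 and the smallest FDR of a member, 0.0762. In LOWAA against HIGHGLUC it had 44 such genes and 0 members. For RPS16 the authors' deposited table lists folds of -13.95 and -13.05 against control for HIGHGLUC and LOWAA. These have the sign of its log2 fold changes with total reads (-3.66 and -3.55), not with unique reads (0.30 and 0.41). In control replicate 5, 4 of the 358 exon reads of that row were unique. RPS13 in HIGHGLUC against control had a fold of 1.11 in the authors' deposited table, beside 0.16 (log2) with total and -0.20 with unique reads. For RPS16 and RPS13 the authors' folds thus do not follow the unique reads used here. RPS15 and RPS7 had unique reads only, 25347 and 39640 over the 9 libraries. For RPS15 and RPS7 the authors' FDRs and the adjusted p of edgeR come from different tests and scalings, and the part of each was not tested.

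Other genes of the ribosome and its supply were read from lists, and 0 of their 116 tested genes passed the edgeR test in any of the 3 comparisons, with 4, 3 and 2 at an unadjusted p under 0.05. DESeq2, limma-voom and edgeR with the sets as a block also called 0 of them. RPSA and RACK1, small-subunit proteins with other symbols, had log2 fold changes of -0.042 ± 0.096 and -0.069 ± 0.10 in HIGHGLUC against LOWAA. Of 12 tested translation genes whose mRNA also begins with a pyrimidine tract, 12 were lower in HIGHGLUC than in LOWAA, with a median of -0.060, beside 50.7% of all genes. In LOWAA against control 12 were higher, beside 51.2% of all genes, and both counts share the LOWAA libraries. In HIGHGLUC against control 5 were higher and 7 lower. EEF1B2 had 311, 282 and 254 CPM in control, 284, 269 and 252 in HIGHGLUC and 322, 299 and 276 in LOWAA. It was highest in LOWAA within each set, and its log2 fold change between HIGHGLUC and LOWAA was -0.16 ± 0.093. HNRNPA1, an RNA-binding protein with 34.5% unique reads, had -0.17 ± 0.11.

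Among 18 regulators around mTOR and LARP1, 12 were lower and 6 higher in HIGHGLUC than in LOWAA, beside 50.7% and 49.3% of all genes. Against control 10 of them were higher in LOWAA and 8 in HIGHGLUC, beside 51.2% and 49.9% of all genes. RICTOR, a subunit of one of the mTOR complexes, had 130, 115 and 124 CPM in control and 98.7, 105 and 96.0 CPM in LOWAA. In LOWAA against control these groups did not overlap, beside 9.92% of all genes. The log2 fold change was -0.30 ± 0.091 (adjusted p 0.9999 in edgeR). CNBP, which binds such mRNAs, had 0.18 ± 0.086 in LOWAA against control and -0.060 ± 0.086 in HIGHGLUC against LOWAA. Of 15 late assembly factors 14 were lower in HIGHGLUC than in LOWAA, with a median of -0.090, beside 50.7% of all genes lower. Against control 11 of the 15 were higher in LOWAA, with a median of 0.095, and 8 in HIGHGLUC, with a median of 0.0015. Over all genes 51.2% and 49.9% were higher. How the counts of these lists depend on single libraries was not tested. RIOK1, a kinase that matures the small subunit, had 14.1, 14.9 and 18.2 CPM in HIGHGLUC and 19.0, 18.8 and 20.9 CPM in LOWAA, and a log2 fold change of -0.32 ± 0.13. TSR1, which shields the immature small subunit, had -0.091 ± 0.094.

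The 69 tested mitochondrial ribosomal protein genes, of 71 in the table, divided evenly in HIGHGLUC against LOWAA, with 35 lower, 34 higher and a median of -0.0018. In LOWAA against control 41 were higher and 28 lower, beside 51.2% and 48.8% of all genes. In HIGHGLUC against control 37 were higher and 32 lower, beside 49.9% and 50.1%. MRPL40 had 11.8, 14.6 and 13.8 CPM in control and 19.96, 17.6 and 16.9 CPM in HIGHGLUC. Every HIGHGLUC library lay above every control library, beside 7.35% of all genes whose groups did not overlap. The log2 fold change was 0.41 ± 0.13 (adjusted p 0.9998 in edgeR). MRPL10, of which 39.9% of reads were unique, had 0.38 ± 0.13.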

How the data were processed

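RNA of 9 libraries was compared, 3 per group. All values come from 1 deposited table. Its columns of unique exon, total exon, intron and exon-exon reads hold whole-number read counts that the authors made for each gene, and total reads include those with several matching places, per the file headers. The fold change deposited by the authors is a signed score, negative for a lower value. The p-value columns deposited by the authors hold Baggerley's test and its FDR. Gene identifiers, exon length, exon number and positions are other deposited columns. Per the submitters' processing notes Bowtie2, HTSeq 0.5.4p2 and build UMD3.1 were used, with no role given for each. Another 156 columns with values of libraries stayed unused. Symbols are the table's own, and 6055 genes carry an identifier in place of one.

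Unique exon reads were filtered with filterByExpr of edgeR 4.0.16 (11700 genes kept, all 39 members among them) and scaled with TMM. The robust quasi-likelihood test of that package (R 4.3.3) used a single model of the group over the 9 libraries. The threshold was a Benjamini-Hochberg adjusted p of 0.05 over all genes tested. CPM of unique reads carry TMM factors, and CPM of total reads do not. The procedure was run on simulated counts, without sets and with fold changes larger than the member medians. That run does not speak to differences as small as those medians. DESeq2 1.42.0, limma-voom (limma 3.58.1), other size factors, no filter, total reads, leaving out each library and a fit with the library-number sets as a further term were the alternatives. For the sets to count as pairs, same-set libraries needed a correlation above 0.1 once group means were removed. All 9 such pairs reached it (0.198 to 0.452, beside -0.367 to 0.032 for the 18 others). The sets come from the order of library numbers, not from a statement in the labels, so the fit without them gives the values reported. With them the biological coefficient of variation was 0.0722, and without them 0.113. Chi-square per degree of freedom between libraries of 1 group was 5.88 to 15.1, so none was counted as a duplicate.

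The members, lists and tests were chosen with earlier results of these data known. Genes named are, for each comparison, the 4 members with the smallest p in each direction (only 2 were higher in HIGHGLUC than in LOWAA), the 4 with the highest and lowest level per kilobase and the lowest unique share, members of the stalk, RPL11, RPS6 and paralogs with their parent genes, the member next to the read minimum, 2 genes of each list and the 3 genes most like the member mean. RPS25, RPS19, RPL39, RPL37, RPL18, RPL13, RPS3A, RPL8, RPL23, RPL30 and RPL36 were named after their values were seen. Some genes that this rule names are not reported here. No sequence is shown, since the reference table used here holds none.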

Additional observations from a re-analysis of the deposited data

How the results depend on the processing

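The count of members that passed the test was 0 in all 51 alternative fits over the 3 comparisons: total exon reads, other size factors, no filter, DESeq2, limma-voom, the sets as a replicate block, that block with total reads, and each library left out. The median of the members moved in all 54 alternatives by less than 0.070, the SD of the member mean between libraries of a group (log2), but it passed 0 without control replicate 5 in HIGHGLUC against control, and without control replicate 13 and LOWAA replicate 8 in LOWAA against control; leaving out 1 library gave -0.10 to 0.027 for HIGHGLUC against control, -0.034 to 0.082 for LOWAA against control and -0.083 to -0.034 for HIGHGLUC against LOWAA. Members lower in HIGHGLUC than in control numbered 14 to 31 and members higher in LOWAA than in control 13 to 30 when 1 library was left out, with 14 without control replicate 5, 13 without control replicate 13 and 19 without LOWAA replicate 8. Members lower in HIGHGLUC than in LOWAA numbered 28 to 37. Of the fold changes of named members under an alternative 369 kept their sign and 5 changed it: RPS13 in HIGHGLUC against control was 0.16 with total reads and 0.19 with total reads and the sets as a replicate block, and in HIGHGLUC against LOWAA RPLP1 was -0.018 without HIGHGLUC replicate 6 (0.20 without HIGHGLUC replicate 10), and RPS7 was -0.0083 without HIGHGLUC replicate 6 and -0.025 without LOWAA replicate 15 (0.088 without LOWAA replicate 12). The share of reads in members was 2.36% in HIGHGLUC and 2.46% in LOWAA with total reads, and 2.28% in HIGHGLUC without mitochondrial reads. Leaving out 1 library, it was 2.15% to 2.33% in control, 2.17% to 2.21% in HIGHGLUC and 2.22% to 2.32% in LOWAA. The causes were not tested. With the sets as a replicate block the count of genes that passed went from 0 to 7, 57 and 36 in the 3 comparisons, and the smallest adjusted p of a member was 0.067. The fit of total reads with the sets, the members with several exons only, and total reads without control replicate 5 were chosen after seeing the data. With 3 libraries per group, every comparison with control includes control replicate 5 at 2731978 reads. The part of its depth in the results was not tested.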

Other observations

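RPL8, at the peptide-bond centre, had 99 total reads in control replicate 5, of which 1 was unique, and 1 to 5 total reads in each other library. RPL37 had unique reads only in control replicate 5 and 86.4% to 92.4% unique reads in the others. RPL39 had 90.2% unique reads there and 75.1% to 81.0% in the others. RPL12 and RPS3A, also with many multiply matched reads, had no such gap.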
